A study of Mus musculus with 7 samples.

Results

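The TGF-beta pathway was followed through 10 genes of the liver count table, namely the ligands *Tgfb1*, *Tgfb2* and *Tgfb3*, the receptors *Tgfbr1*, *Tgfbr2* and *Tgfbr3*, and the intracellular signal carriers *Smad2*, *Smad3*, *Smad4* and *Smad7*. They were taken by name and are 10 of 23347 genes in the table. All 10 passed the filter on low counts, as did 15179 genes in all. The libraries came from livers of 7 male C57BL/6 mice, young adults when the diet began, that ate the CDAHFD for 15 weeks. The CDAHFD is a high-fat diet of defined amino acids that lacks choline and causes steatohepatitis. The 4 mice labelled WT were *B4galt1 flox/flox* littermates, so both of their *B4galt1* alleles were flanked by loxP sites. The 3 mice labelled B4galt1-HKO (*B4galt1 hep-/-*) carried the same alleles together with *Alb*-Cre. In it the albumin promoter drives Cre, so that the deletion is aimed at hepatocytes. *B4galt1* encodes a galactosyltransferase that builds N-glycans. The comparison asks how the pathway's RNAs differ between CDAHFD-fed livers with and without this deletion. Each library is the total RNA of 1 whole liver sample, in which fewer cells of a type and less RNA per cell cannot be told apart, and an effect of Cre itself cannot be told apart from that of the deletion.

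TGF-beta ligands are secreted in a latent complex and, once released, bind the type II receptor TGFBR2, which activates the type I receptor TGFBR1, while TGFBR3 (betaglycan) presents ligand to them. TGFBR1 phosphorylates SMAD2 and SMAD3, these enter the nucleus with SMAD4, and SMAD7, itself a target of the pathway, blocks TGFBR1. In the liver the pathway is best known for turning hepatic stellate cells into matrix-producing cells and for restraining hepatocyte growth.

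Promoter windows are shown for 3 genes picked by their values. *Tgfb1* and *Tgfbr2* were called lower in B4galt1-HKO libraries, while *Tgfbr1*, the partner of *Tgfbr2*, had similar levels in both groups. Each window is the 250 bases before the annotated start, 5′ to 3′ on the gene's strand, from RefSeq on GRCm38.p6. The *Tgfb1* window lies at chr7:25686752-25687001 (+), that of *Tgfbr2* at chr9:116175364-116175613 (-) and that of *Tgfbr1*, at the upstream of its 2 windows, at chr4:47352972-47353221 (+). Capitals mark matches on either strand to the Smad box CAGAC, the AP-1 motif TGANTCA, the GC box GGGCGG and the CCAAT box CCAAT.
Tgfb1: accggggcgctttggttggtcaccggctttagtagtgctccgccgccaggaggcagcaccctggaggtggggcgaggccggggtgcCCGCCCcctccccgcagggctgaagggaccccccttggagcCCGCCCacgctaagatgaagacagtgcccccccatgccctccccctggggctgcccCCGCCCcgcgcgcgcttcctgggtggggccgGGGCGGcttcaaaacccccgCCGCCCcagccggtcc
Tgfbr2: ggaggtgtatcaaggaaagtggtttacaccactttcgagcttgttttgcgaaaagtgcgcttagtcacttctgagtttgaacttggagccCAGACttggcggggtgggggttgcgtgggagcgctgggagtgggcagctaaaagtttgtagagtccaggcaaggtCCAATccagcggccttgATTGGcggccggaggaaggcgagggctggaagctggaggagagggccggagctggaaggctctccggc
Tgfbr1: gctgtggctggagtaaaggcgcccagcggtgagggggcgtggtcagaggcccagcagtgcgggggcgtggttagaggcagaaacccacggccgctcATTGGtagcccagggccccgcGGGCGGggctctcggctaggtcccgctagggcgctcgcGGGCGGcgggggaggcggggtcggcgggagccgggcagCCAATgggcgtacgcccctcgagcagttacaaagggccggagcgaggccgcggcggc
The *Tgfb1* window held 5 GC boxes and no match to the other motifs, at a GC content of 75.2%. The *Tgfbr2* window, at 58.4% GC, held 1 Smad box and 2 CCAAT boxes and no GC box. The *Tgfbr1* window, at 74.8% GC, held 2 GC boxes and 2 CCAAT boxes. Of 32851 windows of the same length, 42.2% held a Smad box, 32.7% a GC box, 33.8% a CCAAT box and 6.75% an AP-1 motif, and their median GC content was 52.4%. No overlap between motifs was removed. These are matches of letters in a window and no measurement of binding, and their relation to the RNA levels was not tested. Windows were matched for 5 of the 10 genes, also for *Tgfb2* and *Smad3*, and *Smad2*, likewise called lower, had none.

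*B4galt1*, the targeted gene, was measured at 48.7, 53.0, 49.2 and 51.6 CPM (the count relative to the TMM-adjusted library size) in WT replicates 1 to 4 and at 28.4, 23.9 and 53.7 CPM in B4galt1-HKO replicates 1 to 3. B4galt1-HKO replicates 1 and 2 were below every WT library, while B4galt1-HKO replicate 3 was above all 4 on this scale. In the authors' FPKM (fragments per kilobase of gene, scaled to the library total) replicate 3 stood at 11.9, just below the WT range of 12.2 to 14.0, and its group mates at 6.47 and 6.52. On both scales its *B4galt1* was closer to WT than to its group mates, which goes against its label. The difference over all 7 libraries did not pass the threshold (log2 fold change -0.52 ± 0.26 (SE), adjusted p = 0.181), and without replicate 3 it was -0.96 (adjusted p = 0.0139, against 0.0139 to 0.461 over all alternatives). The group therefore stands for the libraries labelled B4galt1-HKO. Total counts ran from 37838654 to 39668509 in WT and from 30608271 to 34586588 in B4galt1-HKO libraries. Mitochondrially encoded genes took 5.79% ± 1.70 (SD, n = 4) of counts in WT and 19.7% ± 4.58 (SD, n = 3) in B4galt1-HKO libraries. The tissue label held, with summed hepatocyte markers (*Alb*, *Apoa1*, *Apob*, *Ttr*, *Cps1*, *Asgr1*, *Hnf4a* and *Tat*) of 78698 to 117446 CPM in WT and 94097 to 148490 CPM in B4galt1-HKO libraries.

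In each role a single gene was called lower in the libraries labelled B4galt1-HKO, namely the ligand *Tgfb1*, the signalling receptor *Tgfbr2* and the signal carrier *Smad2*. To be called, a gene needed an edgeR quasi-likelihood F test with Benjamini-Hochberg adjusted p under 0.05 over all tested genes and a log2 fold change beyond 0.58 in either direction. Of the 10 genes, 3 were called, all lower, and the other 7 did not pass. Over all tested genes 15.8% were called and 7.83% were called lower. The median log2 fold change (B4galt1-HKO over WT) of the 10 genes was -0.30, beside 0.02 over all tested genes. The 3 called genes were also the 3 whose groups did not overlap, a pattern of lower values that 15.0% of all tested genes showed. Leaving out WT replicate 2 left 1 call of the 10, *Tgfbr2*, and cut the calls over all genes from 2404 to 885.

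**Figure D1:**
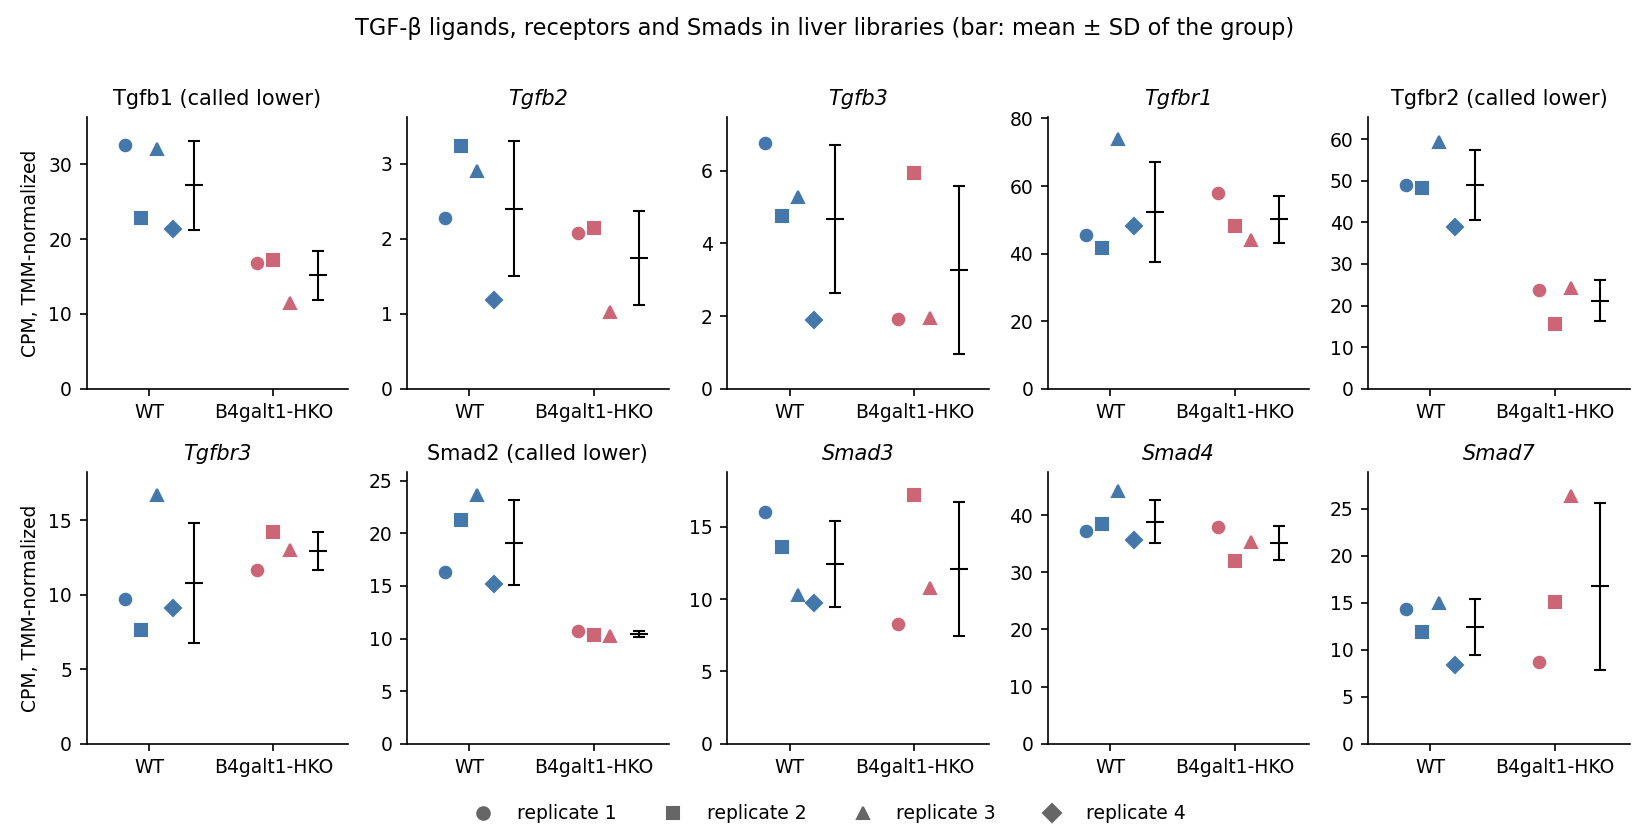
CPM (TMM-normalized, y axis from 0) of the 10 genes in each library, WT (blue, 4 libraries) and B4galt1-HKO (red, 3 libraries), with the marker shape giving the replicate and the bar the mean ± SD of the group. *Tgfb1*, *Tgfbr2* and *Smad2* are the 3 panels in which the groups do not overlap, with *Tgfbr2* at 38.8 to 59.4 CPM in WT and 15.6 to 24.3 CPM in B4galt1-HKO libraries.

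*Tgfb1* (NCBI gene 21803, chromosome 7), the main TGF-beta ligand of the liver, stood at 32.6, 22.8, 32.1 and 21.4 CPM in WT replicates 1 to 4 and at 16.8, 17.2 and 11.4 CPM in B4galt1-HKO replicates 1 to 3. Every B4galt1-HKO value was below every WT value, with B4galt1-HKO replicate 3 lowest. The fitted level was 1.80-fold lower (log2 fold change -0.85 ± 0.23 (SE), 95% interval -1.35 to -0.34, adjusted p = 0.0311). Within WT, replicates 1 and 3 were well above replicates 2 and 4, so the spread inside that group was wider than the gap between the nearest libraries of both groups. The call was lost without WT replicate 1 (-0.75, adjusted p = 0.0562), WT replicate 2 (-0.92, 0.0614), WT replicate 3 (-0.76, 0.0693), B4galt1-HKO replicate 1 (-0.94, 0.0506) or B4galt1-HKO replicate 3 (-0.69, 0.0845). Over all alternatives the adjusted p ran from 0.00933 to 0.113, and the log2 fold change stayed between -0.96 and -0.69.

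The other ligands were scarce. *Tgfb2* (NCBI gene 21808, chromosome 1) stood at 2.28, 3.24, 2.90 and 1.19 CPM in WT and 2.08, 2.14 and 1.02 CPM in B4galt1-HKO libraries, from 31 to 129 counts a library. The groups overlapped, and the test did not separate them (log2 fold change -0.46 ± 0.43 (SE), 95% interval -1.41 to 0.49, adjusted p = 0.494). Without B4galt1-HKO replicate 3 the difference was -0.20, and without WT replicate 4 it was -0.68. *Tgfb3* (NCBI gene 21809, chromosome 12) stood at 6.76, 4.74, 5.27 and 1.89 CPM in WT and 1.92, 5.94 and 1.94 CPM in B4galt1-HKO libraries. Here WT replicate 4 was as low as B4galt1-HKO replicates 1 and 3, and B4galt1-HKO replicate 2 was the second highest of all 7 libraries. The difference did not pass (log2 fold change -0.51 ± 0.49 (SE), 95% interval -1.59 to 0.56, adjusted p = 0.498). Without B4galt1-HKO replicate 2 it was -1.28, and without B4galt1-HKO replicate 3 it was -0.26. Both intervals include 0 as well as a fall of the size seen for *Tgfb1*.

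*Tgfbr2* (NCBI gene 21813, chromosome 9), the receptor that binds ligand first, showed the largest difference of the 10. Its level was 49.1, 48.4, 59.4 and 38.8 CPM in WT replicates 1 to 4 and 23.7, 15.6 and 24.3 CPM in B4galt1-HKO replicates 1 to 3. The lowest WT library, replicate 4, was well above the highest B4galt1-HKO library, replicate 3. The fitted level was 2.31-fold lower (log2 fold change -1.21 ± 0.22 (SE), 95% interval -1.69 to -0.73, adjusted p = 0.00732). *Tgfbr2* was called under each of the 19 alternatives, with log2 fold changes between -1.32 and -1.03 and adjusted p between 3.66e-05 and 0.0259. Without B4galt1-HKO replicate 3 it was -1.32 (adjusted p = 0.0127).

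*Tgfbr1* (NCBI gene 21812, chromosome 4), the kinase that passes the signal to the Smads, did not follow its partner. It stood at 45.6, 41.5, 74.0 and 48.1 CPM in WT and 57.9, 48.3 and 44.1 CPM in B4galt1-HKO libraries, and all 3 of the latter lay inside the WT range. The highest value was WT replicate 3, and without it the fitted difference turned from -0.06 to 0.15. Without B4galt1-HKO replicate 3 it was 0.013. No difference was detected (log2 fold change -0.06 ± 0.22 (SE), 95% interval -0.55 to 0.43, adjusted p = 0.871). The promoter of *Tgfbr1* shown above thus belongs to a gene with overlapping groups, and those of *Tgfb1* and *Tgfbr2* to genes without overlap. *Tgfbr3* (NCBI gene 21814, chromosome 5), the co-receptor betaglycan, was at 9.73, 7.60, 16.7 and 9.13 CPM in WT and 11.7, 14.2 and 13.0 CPM in B4galt1-HKO libraries. WT replicate 3 was again the highest, and the other WT libraries were all below the B4galt1-HKO ones. The difference did not pass (log2 fold change 0.26 ± 0.27 (SE), 95% interval -0.32 to 0.85, adjusted p = 0.528), also not without WT replicate 3, when it was 0.55.

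*Smad2* (NCBI gene 17126, chromosome 18), a receptor-activated Smad, stood at 16.3, 21.2, 23.7 and 15.2 CPM in WT and at 10.7, 10.3 and 10.2 CPM in B4galt1-HKO libraries. The 3 B4galt1-HKO values were close together and all below the lowest WT value. The fitted level was 1.83-fold lower (log2 fold change -0.87 ± 0.21 (SE), 95% interval -1.34 to -0.41, adjusted p = 0.0202). The call was lost without WT replicate 2 (-0.82, adjusted p = 0.07) and held without B4galt1-HKO replicate 3 (-0.87, 0.0463), and the adjusted p ran from 0.00359 to 0.1 over all alternatives.

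*Smad3* (NCBI gene 17127, chromosome 9), the other receptor-activated Smad of the pathway, stood at 16.0, 13.6, 10.3 and 9.69 CPM in WT and 8.28, 17.2 and 10.8 CPM in B4galt1-HKO libraries. B4galt1-HKO replicate 1 was the lowest and replicate 2 the highest of all 7 libraries, so the groups overlapped fully. No difference was detected (log2 fold change -0.04 ± 0.28 (SE), 95% interval -0.65 to 0.57, adjusted p = 0.942), and its sign changed without WT replicate 1 or 2 or B4galt1-HKO replicate 1 or 3. *Smad4* (NCBI gene 17128, chromosome 18), the shared partner of the activated Smads, had the smallest SE of the 10 and stood at 37.3, 38.5, 44.3 and 35.6 CPM in WT and 37.9, 32 and 35.3 CPM in B4galt1-HKO libraries. Its interval leaves room for a fall of at most 0.52 on the log2 scale (log2 fold change -0.15 ± 0.17 (SE), 95% interval -0.52 to 0.22, adjusted p = 0.573).

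*Smad7* (NCBI gene 17131, chromosome 18), the inhibitor that the pathway itself induces, was at 14.3, 11.8, 14.9 and 8.36 CPM in WT and 8.73, 15.1 and 26.3 CPM in B4galt1-HKO libraries. B4galt1-HKO replicate 3, whose *B4galt1* was close to that of WT, was far above the rest, while replicates 1 and 2 lay in or just above the WT range. The difference did not pass (log2 fold change 0.43 ± 0.33 (SE), 95% interval -0.29 to 1.16, adjusted p = 0.39) and went from 0.43 to -0.06 without B4galt1-HKO replicate 3.

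**Figure D2:**
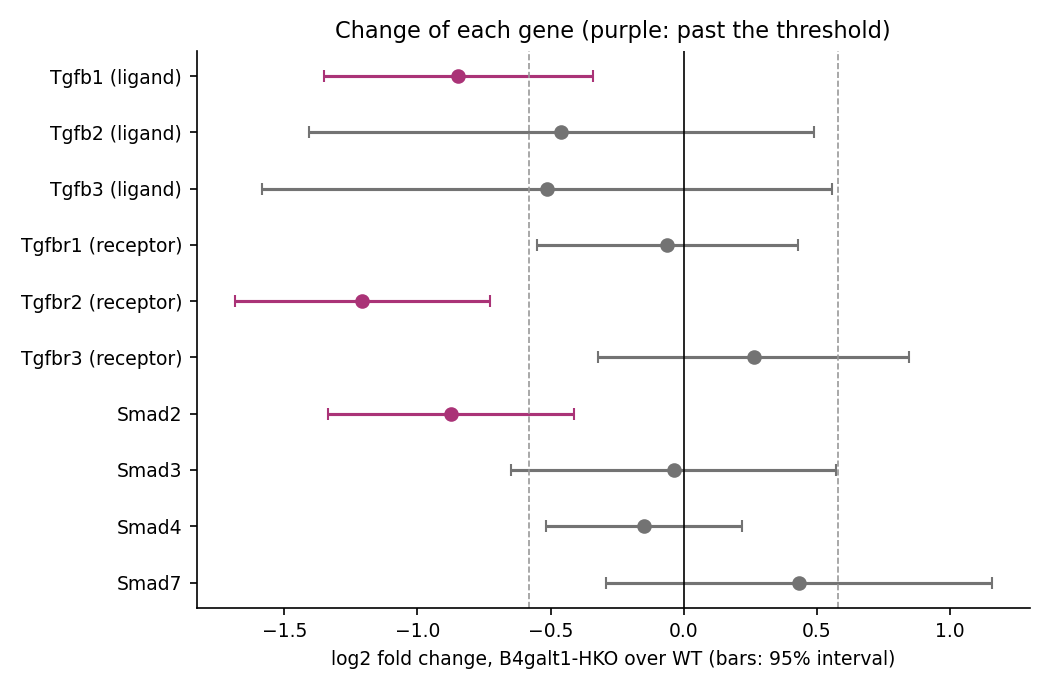
Log2 fold change of each of the 10 genes (x axis, B4galt1-HKO over WT) with its 95% interval from the edgeR fit of 4 against 3 libraries, the dashed lines marking ± 0.58 and purple the called genes. *Tgfb1* (-0.85), *Tgfbr2* (-1.21) and *Smad2* (-0.87) have intervals wholly below 0, and the other 7 intervals include 0.

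Macrophage markers and the mitochondrial share also moved with the groups. Of 9 markers of Kupffer cells and macrophages, 6 were called lower (*Vsig4*, *Marco*, *Adgre1*, *Cd68*, *Trem2* and *Gpnmb*), and their summed level was 818 to 1747 CPM in WT and 401 to 495 CPM in B4galt1-HKO libraries. DESeq2 called 7 of the 9. Of the other macrophage markers, *Clec4f* and *Csf1r* were measured throughout without a call by edgeR and *Timd4* was near the detection limit (0.0603 to 1.03 CPM). Hepatic stellate cell markers summed to 671 to 1174 CPM in WT and 616 to 973 CPM in B4galt1-HKO libraries, with 1 of 10 called (*Ngfr*, lower). *Dcn* was the largest part of this sum, at 353 to 750 CPM in WT and 288 to 566 CPM in B4galt1-HKO libraries. Markers of liver sinusoidal endothelial cells summed to 115 to 406 CPM and 152 to 173 CPM, with 1 of 8 called (*Kdr*, lower) and WT replicate 3 the highest. *Adgre1*, which encodes the macrophage marker F4/80, was at 25.6, 23.2, 71.3 and 20.1 CPM in WT and 12.7, 8.14 and 7.70 CPM in B4galt1-HKO libraries. The part of the macrophage markers in the lower *Tgfb1*, *Tgfbr2* and *Smad2* was not tested. The mitochondrial share of counts moved with the groups as well, and its part in these results was not tested.

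The remaining marker lists held few or no calls. By the edgeR test 0 of 8 hepatocyte markers were called, beside 2 at an unadjusted p under 0.05 and 2 called by DESeq2. Of cholangiocyte markers (253 to 656 CPM in WT, 259 to 870 CPM in B4galt1-HKO libraries), edgeR called 0 of 5, beside 0 at an unadjusted p under 0.05 and 0 by DESeq2. *Spp1* made up most of this sum, at 240 to 621 CPM in WT and 236 to 797 CPM in B4galt1-HKO libraries. Lymphocyte markers (9.11 to 24.7 CPM and 15.7 to 43.5 CPM) gave 0 of 5 by edgeR, 0 at an unadjusted p under 0.05 and 0 by DESeq2. Neutrophil markers (24.9 to 36.4 CPM and 24.9 to 45.9 CPM) gave 0 of 4 tested by edgeR, 1 at an unadjusted p under 0.05 and 0 by DESeq2, with *Ly6g* at or near 0. Platelets are a rich store of TGF-beta1 protein, and their markers were scarce (6.67 to 8.84 CPM and 8.19 to 10.7 CPM), with *Gp9* and *Gp1bb* at or near 0. Of the 2 platelet markers tested edgeR called 0, beside 1 at an unadjusted p under 0.05 and 1 by DESeq2.

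**Figure D3:**
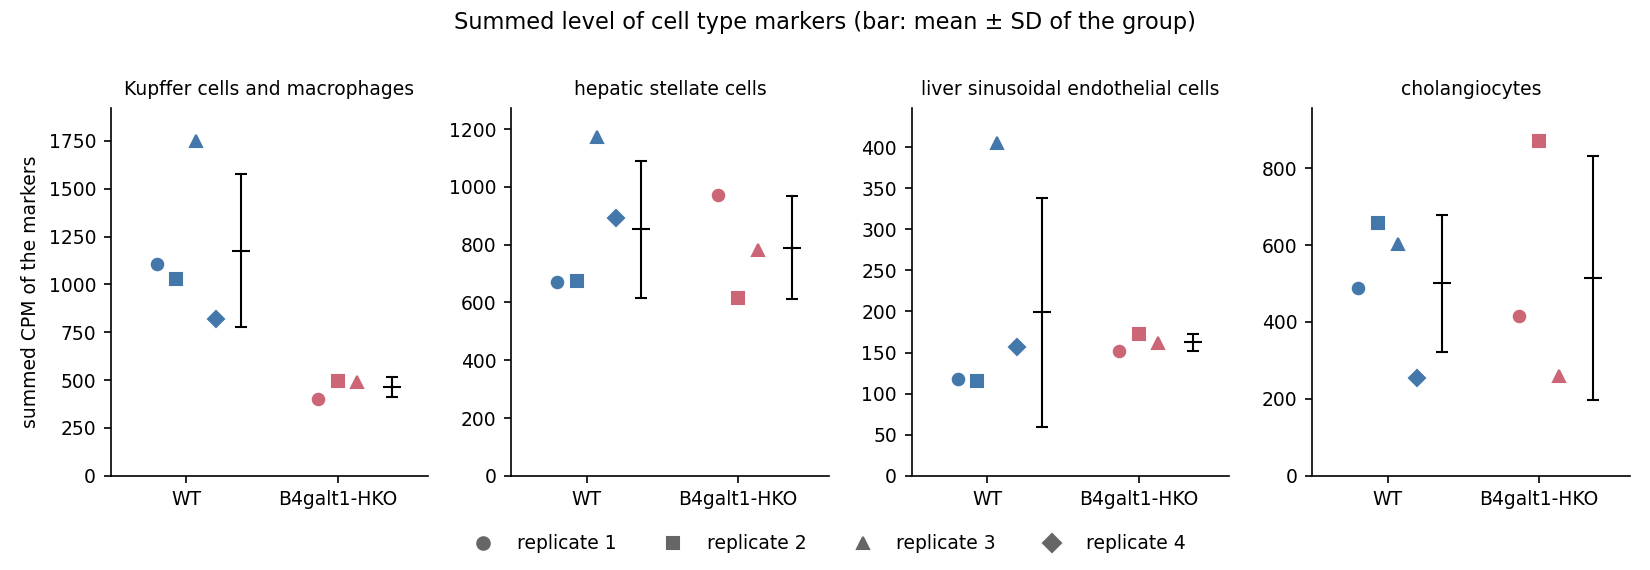
Summed CPM (y axis from 0) of the marker lists of 4 cell types in each library, WT (blue, 4 libraries) and B4galt1-HKO (red, 3 libraries), with the bar giving the mean ± SD of the group. The macrophage sums do not overlap (818 to 1747 CPM against 401 to 495 CPM), while the stellate, endothelial and cholangiocyte sums do. The largest parts of the macrophage, stellate and cholangiocyte sums are *Gpnmb*, *Dcn* and *Spp1*.

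Compared per length, with the authors' FPKM, the order of the 10 genes differed between the groups. In WT libraries the levels ran from *Tgfb1* at 13.1 ± 3.87 FPKM (SD, n = 4) through *Tgfbr2* at 10.7 ± 2.47, *Tgfbr1* at 8.52 ± 2.70 and *Smad4* at 5.32 ± 0.802 FPKM. Then came *Smad7* (2.94), *Smad3* (2.36), *Tgfbr3* (1.86), *Tgfb3* (1.47), *Smad2* (1.41) and *Tgfb2* (0.296 FPKM). Ranges of neighbours in this order overlapped except between *Tgfbr1* and *Smad4*, *Smad4* and *Smad7*, and *Smad2* and *Tgfb2*, although *Tgfb1* exceeded *Tgfbr2* and *Tgfbr2* exceeded *Tgfbr1* in each of the 4 libraries. In B4galt1-HKO libraries *Tgfbr1* came first at 7.45 ± 1.22 FPKM (SD, n = 3), followed by *Tgfb1* at 6.66 ± 1.97, *Smad4* at 4.37 ± 0.261 and *Tgfbr2* at 4.16 ± 0.538 FPKM. Below them stood *Smad7* (3.56), *Smad3* (2.15), *Tgfbr3* (2.04), *Tgfb3* (0.972), *Smad2* (0.702) and *Tgfb2* (0.199 FPKM). Here the ranges of neighbours overlapped except between *Tgfb1* and *Smad4*, and *Smad2* and *Tgfb2*. *Tgfbr1* exceeded *Tgfb1* in 2 of 3 libraries, *Smad4* exceeded *Tgfbr2* in 2 of 3, and *Tgfbr2* exceeded *Smad7*, *Smad3* exceeded *Tgfbr3* and *Tgfb3* exceeded *Smad2* in 1 of 3 each. In WT, *Smad3* exceeded *Tgfbr3* in 3 of 4 libraries, *Tgfbr3* exceeded *Tgfb3* in 2 of 4 and *Tgfb3* exceeded *Smad2* in 1 of 4. The order of these neighbours is not settled. The order rests on the single length per gene that the authors used.

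Ratios inside a library do not depend on the scaling between libraries, and 5 of them were compared between the 4 and 3 libraries by exact permutation, two-sided. The smallest p the 35 splits allow is 0.0286. *Tgfbr2* and *Tgfbr1* form the signalling receptor, and the log2 ratio of *Tgfbr2* to *Tgfbr1* was 0.35 ± 0.28 (SD, n = 4) in WT and -0.84 ± 0.38 (SD, n = 3) in B4galt1-HKO libraries. In FPKM all 4 WT libraries had more *Tgfbr2* than *Tgfbr1*, from 1.08 to 1.56 times as much, and all 3 B4galt1-HKO libraries had less, from 0.434 to 0.737 times. In CPM *Tgfbr2* was below *Tgfbr1* also in WT replicate 3 (59.4 against 74.0 CPM) and WT replicate 4 (38.8 against 48.1 CPM). The side of 0 thus depends on the length used per gene, while the difference between the groups does not. The difference of -1.18 reached the smallest exact p of 0.0286, or 0.0714 after adjustment over the 5 ratios. With this few libraries an adjusted p under 0.05 needs at least 3 of the 5 ratios at the smallest p. Fewer reached it here, since the 2 Smad ratios below had exact permutation p of 0.0857 and 0.114.

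The log2 ratio of the co-receptor *Tgfbr3* to the sum of *Tgfbr1* and *Tgfbr2* was -3.42 ± 0.25 (SD, n = 4) in WT and -2.52 ± 0.33 (SD, n = 3) in B4galt1-HKO libraries. The groups did not overlap, and the difference of 0.90 had the same exact p of 0.0286 (0.0714 adjusted over the 5 ratios). This ratio shares *Tgfbr2* and *Tgfbr1* with the one before and is not independent of it.

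Among the Smads the log2 ratio of *Smad3* to *Smad2* was 0.73 ± 0.48 (SD, n = 4) in WT and 1.5 ± 0.56 (SD, n = 3) in B4galt1-HKO libraries, with overlapping groups (difference 0.78, exact permutation p = 0.0857, adjusted 0.143). Without B4galt1-HKO replicate 2 that difference was 0.48. The log2 ratio of the inhibitor *Smad7* to the sum of *Smad2* and *Smad3* was -0.39 ± 0.24 and 0.26 ± 0.77 (difference 0.65, exact permutation p = 0.114, adjusted 0.143). B4galt1-HKO replicate 3 stood at 1.15 in this ratio and its 2 group mates at -0.20 and -0.18, all of WT being between -0.59 and -0.07. Without replicate 3 the difference was 0.20. *Tgfb1* made up 88.5% ± 3.46 (SD, n = 4) of ligand FPKM in WT and 86.1% ± 5.74 (SD, n = 3) in B4galt1-HKO libraries (exact permutation p = 0.571, also after adjustment), so that no shift between ligands was detected. Without B4galt1-HKO replicate 2, at 79.6%, that difference turned from -2.39 to 0.856 percentage points.

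**Figure D4:**
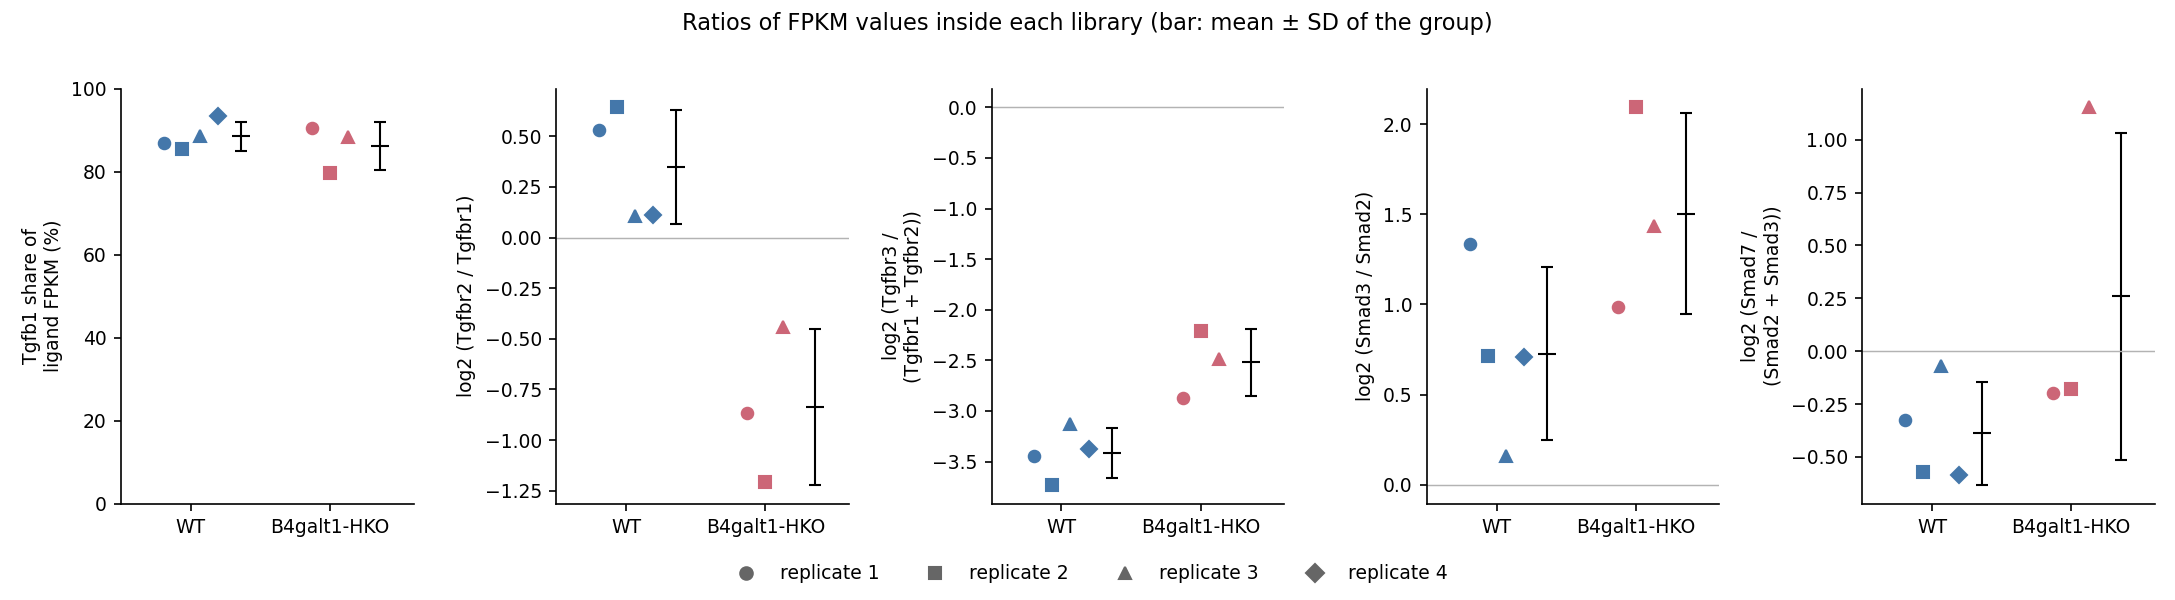
The 5 ratios of FPKM values inside each library, WT (blue, 4 libraries) and B4galt1-HKO (red, 3 libraries), with the first axis in percent and the others on a log2 scale, and the bar giving the mean ± SD of the group. The log2 ratio of *Tgfbr2* to *Tgfbr1* is above 0 in all 4 WT libraries and below 0 in all 3 B4galt1-HKO libraries, while the *Tgfb1* share lies between 79.6% and 93.3% in all 7.

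The genes whose profile over the 7 libraries was most like that of the ligand, receptor and Smad with the highest mean FPKM over all 7 libraries were found by the root mean square difference of centred log2 CPM, among 15169 other tested genes. Among the receptors *Tgfbr1* (8.06 FPKM) led by a small margin over *Tgfbr2* (7.90 FPKM), which was the higher of both in WT. For *Tgfb1* the most similar were *Hcls1* (0.0806), *Laptm5* (0.0952) and *Acvrl1* (0.108). *Laptm5* ran from 73.2 to 128 CPM in WT and from 43.7 to 57.3 CPM in B4galt1-HKO libraries, and like *Tgfb1* it was lowest in B4galt1-HKO replicate 3. For *Tgfbr1* they were *Ubxn2b* (0.0638), *Cdkn1c* (0.0704) and *AB124611* (0.0791), each of which was highest in WT replicate 3 as *Tgfbr1* was. For *Smad4* they were *Vps26b* (0.0392), *Mob2* (0.0531) and *Cnnm2* (0.0657). The members' own SD over the 7 libraries was 0.54 for *Tgfb1*, 0.29 for *Tgfbr1* and 0.14 for *Smad4* on the log2 scale, so a small difference means less for *Smad4*.

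Around these 10 genes, 4 lists of other pathway genes were read from the same fit. *Skil*, *Pmepa1*, *Tgif1*, *Thbs1* and *Mmp2* each stand in 2 of them.

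Genes that hold TGF-beta latent or release it showed no call in the fit as reported. The list held latent TGF-beta binding proteins and fibrillin, anchors of the latent ligand, activating integrins and proteases, and all 18 were tested. The edgeR test called 0 of 18, beside 1 at an unadjusted p under 0.05 and 1 called by DESeq2. Most alternatives gave 1 call and a filter of 1 count in any library gave 2, all lower. The median log2 fold change was -0.06, and 12 of 18 were negative, beside 48.7% of all tested genes. An unadjusted p under 0.05 was found for 32.9% of all tested genes. The gene nearest to a call was *Itgb1*, an integrin subunit chosen here after its values were seen, at 188 to 269 CPM in WT and 101 to 160.1 CPM in B4galt1-HKO libraries (log2 fold change -0.71 ± 0.22 (SE), 95% interval -1.19 to -0.22, adjusted p = 0.0514). *Ltbp1*, which binds the latent ligand, was at 4.69 to 12.0 CPM and 7.63 to 9.29 CPM (log2 fold change -0.07 ± 0.31 (SE), 95% interval -0.75 to 0.61, adjusted p = 0.896), and its sign changed without WT replicate 1 or 3. *Thbs1*, whose product thrombospondin-1 releases the ligand, was at 5.11 to 13.5 CPM and 4.21 to 7.06 CPM with overlapping groups (log2 fold change -0.69 ± 0.33 (SE), 95% interval -1.40 to 0.02, adjusted p = 0.164).

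Of 22 accessory receptors and Smad regulators 21 were tested, and 2 were called higher (8.0% of all tested genes were) and 1 lower. The balance turned to 2 higher and 3 lower with DESeq2 and to 1 higher and 5 lower with limma on log2(FPKM + 0.1). Their median log2 fold change was -0.07. Both genes called higher encode ubiquitin ligases. *Nedd4l*, which marks activated *Smad2* and *Smad3* for degradation, stood at 32.1, 40.5, 47.7 and 32 CPM in WT and 67.9, 106 and 76.6 CPM in B4galt1-HKO libraries without overlap, as did 13.6% of all tested genes in this direction (log2 fold change 1.13 ± 0.22 (SE), 95% interval 0.66 to 1.6, adjusted p = 0.00884), and it was called under 18 of 19 alternatives. *Rnf111* (Arkadia), which removes SMAD7 and the repressors SKI and SNON, stood at 21.4 to 23.7 CPM and 32.1 to 38.8 CPM (log2 fold change 0.65 ± 0.16 (SE), 95% interval 0.29 to 1.01, adjusted p = 0.0236). Its call was lost without WT replicate 2 (adjusted p = 0.0827), WT replicate 4 (0.0564) or B4galt1-HKO replicate 1 (0.077), within a range of 0.00707 to 0.141 over all alternatives.

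*Fkbp1a*, which binds and restrains the type I receptor, was called lower at the edge of the threshold, at 84.8, 99.4, 101 and 98.4 CPM in WT and 67.5, 45.6 and 71.0 CPM in B4galt1-HKO libraries (log2 fold change -0.64 ± 0.20 (SE), 95% interval -1.08 to -0.20, adjusted p = 0.0497). That call held in 1 of 7 fits without a library, the one without B4galt1-HKO replicate 3 (-0.77). It was lost without WT replicates 1 (adjusted p = 0.0521), 2 (0.12), 3 (0.0986) or 4 (0.0963), or B4galt1-HKO replicates 1 (0.0667) or 2 (0.137), within 0.00548 to 0.167 over all alternatives. *Eng* (endoglin), an endothelial co-receptor, was at 37.2 to 74.2 CPM and 49.4 to 77.7 CPM (log2 fold change 0.15 ± 0.26 (SE), 95% interval -0.41 to 0.72, adjusted p = 0.709), and its sign changed without B4galt1-HKO replicate 2. *Bambi*, a decoy receptor, was at 5.74 to 12.5 CPM and 6.68 to 11.9 CPM (log2 fold change -0.08 ± 0.31 (SE), 95% interval -0.75 to 0.59, adjusted p = 0.877), and its sign changed without WT replicate 3, B4galt1-HKO replicate 1 or B4galt1-HKO replicate 3. *Skil*, which encodes the repressor SNON, was at 17.6 to 36.8 CPM and 21.0 to 47.0 CPM and highest in B4galt1-HKO replicate 3 (log2 fold change 0.27 ± 0.31 (SE), 95% interval -0.40 to 0.95, adjusted p = 0.574), and without that library the difference was -0.17. The count of calls fell from 3 to 1 without WT replicate 2, without WT replicate 4 or without B4galt1-HKO replicate 1.

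The neighbouring BMP and activin arm, which shares *Smad4* and *Smad7*, had 30 of 33 listed genes tested, with 2 called higher, 0 lower and a median of 0.01 on the log2 scale. Those calls are 6.67% of the genes tested, beside 15.8% of all tested genes in either direction and 8.0% higher. Over the list 8 genes had an unadjusted p under 0.05 (32.9% of all tested genes had), and DESeq2 called 4, of which 2 were higher and 2 lower. The 1 call with either filtered limma fit on FPKM was lower. *Bmp4*, a BMP ligand, stood at 2.58, 2.96, 2.20 and 1.92 CPM in WT and 3.93, 7.33 and 4.74 CPM in B4galt1-HKO libraries without overlap (log2 fold change 1.14 ± 0.31 (SE), 95% interval 0.46 to 1.83, adjusted p = 0.0317). *Id1*, a direct BMP target, stood at 23.4, 15.3, 22.3 and 18.7 CPM and 32.3, 56.2 and 30.2 CPM, also without overlap (log2 fold change 0.99 ± 0.24 (SE), 95% interval 0.45 to 1.52, adjusted p = 0.0224), as 13.6% of all tested genes were in this direction. Both were highest in B4galt1-HKO replicate 2, and without it their log2 fold changes were 0.84 (adjusted p = 0.133) and 0.65 (0.0812). The *Bmp4* call was also lost without WT replicates 2 (0.0681), 3 (0.0661) or 4 (0.0743), within 0.00461 to 0.173 over all alternatives. That of *Id1* was lost without WT replicates 2 (0.0779) or 4 (0.0534), within 0.00369 to 0.209. The count of calls was 0 without WT replicate 2, WT replicate 4 or B4galt1-HKO replicate 2 and 4 without B4galt1-HKO replicate 3.

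Other BMP and activin readouts were not called. The Id genes listed beside *Id1*, named after their values were seen, had log2 fold changes of 0.04 ± 0.20 (SE) for *Id2*, 0.30 ± 0.18 (SE) for *Id3* and -1.48 ± 0.56 (SE) for *Id4*. Their adjusted p were 0.917, 0.273 and 0.0902, and *Id4*, at 0.828 to 3.82 CPM in WT and 0.559 to 1.01 CPM in B4galt1-HKO libraries, was scarce and pointed the other way from *Id1*. *Hamp*, the iron hormone hepcidin that hepatocytes make in response to BMP, ran from 249 to 953 CPM in WT and from 493 to 982 CPM in B4galt1-HKO libraries (log2 fold change 0.18 ± 0.41 (SE), 95% interval -0.71 to 1.07, adjusted p = 0.791), and the sign changed without WT replicate 3 or B4galt1-HKO replicate 1. *Inhbe*, an activin subunit gene of hepatocytes, stood at 124, 121, 52.2 and 138 CPM in WT and 79.7, 47.7 and 45.2 CPM in B4galt1-HKO libraries. It was low in all 3 B4galt1-HKO libraries and in WT replicate 3, and just missed the threshold (log2 fold change -0.92 ± 0.33 (SE), 95% interval -1.63 to -0.21, adjusted p = 0.0751). It was called under 7 of 19 alternatives, among them without WT replicate 3 (-1.15, adjusted p = 0.0226) and without B4galt1-HKO replicate 1 (-1.24, 0.0487), within 0.0198 to 0.182.

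Of 26 genes that TGF-beta is known to induce, all were tested, 1 was called higher and 1 lower, and the median log2 fold change was 0.02. The called share of 7.69% stands beside 15.8% of all tested genes. *Cdkn1a*, the cell cycle inhibitor p21 that also answers to p53, showed the clearest difference, at 15.4, 23.8, 32.8 and 21.2 CPM in WT and 77.4, 78.7 and 164 CPM in B4galt1-HKO libraries. The groups did not overlap, and it was called under each of the 19 alternatives (log2 fold change 2.20 ± 0.31 (SE), 95% interval 1.52 to 2.88, adjusted p = 0.00313). Without B4galt1-HKO replicate 3, the highest, it was 1.74 (adjusted p = 0.00663, within 2.48e-09 to 0.0205). *Tgfbi*, a matrix protein gene named for its induction by TGF-beta, was called lower, at 173, 151, 184 and 136 CPM in WT and 90.2, 97.1 and 90.0 CPM in B4galt1-HKO libraries (log2 fold change -0.80 ± 0.19 (SE), 95% interval -1.21 to -0.39, adjusted p = 0.0178). That call was lost without WT replicate 2 (adjusted p = 0.0515, within 0.000922 to 0.0686). The list then held 1 call, and without WT replicate 4 it held 4. B4galt1-HKO replicate 3 also had the highest *Smad7* and *Skil*.

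Apart from *Tgfbi*, the matrix genes of the list and its contractile genes did not pass. Of 12 other matrix genes edgeR called 0, beside 2 at an unadjusted p under 0.05 and 1 called by DESeq2, and their median log2 fold change was -0.17. Of 2 contractile genes edgeR called 0, beside 0 at an unadjusted p under 0.05 and 0 called by DESeq2. *Col1a1*, the main fibrillar collagen chain, stood at 216, 132, 92.0 and 73.0 CPM in WT and 151, 229 and 73.0 CPM in B4galt1-HKO libraries. The groups spanned similar ranges, and no difference was detected (log2 fold change 0.23 ± 0.40 (SE), 95% interval -0.65 to 1.11, adjusted p = 0.72). The 2 matrix genes with an unadjusted p under 0.05, named for that reason, were lower in the fit. *Fn1* (fibronectin) stood at 1031, 1207, 878 and 826 CPM in WT and 548, 485 and 805 CPM in B4galt1-HKO libraries, without overlap (log2 fold change -0.69 ± 0.25 (SE), 95% interval -1.23 to -0.15, adjusted p = 0.0786). *Sparc*, a collagen-binding matrix protein gene, was at 108 to 244 CPM and 87.0 to 137 CPM with overlap (log2 fold change -0.70 ± 0.27 (SE), 95% interval -1.30 to -0.10, adjusted p = 0.101). *Acta2*, the smooth muscle actin of activated stellate cells, was low in both groups, at 4.92 to 8.83 CPM and 5.36 to 9.54 CPM (log2 fold change 0.05 ± 0.29 (SE), 95% interval -0.57 to 0.68, adjusted p = 0.914), and its sign changed without WT replicate 3 or 4 or B4galt1-HKO replicate 1. *Ccn2*, a growth factor gene that TGF-beta induces, was at 15.0 to 84.9 CPM and 40.9 to 69.8 CPM (log2 fold change 0.29 ± 0.43 (SE), 95% interval -0.65 to 1.24, adjusted p = 0.667). Its difference was 0.0082 without WT replicate 4 and 0.83 without WT replicate 3. *Pmepa1*, a feedback inhibitor, was at 4.97 to 10.1 CPM and 5.92 to 11.6 CPM (log2 fold change 0.17 ± 0.31 (SE), 95% interval -0.51 to 0.85, adjusted p = 0.727). The signs of *Pmepa1* and *Col1a1* changed without B4galt1-HKO replicate 2.

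**Figure D5:**
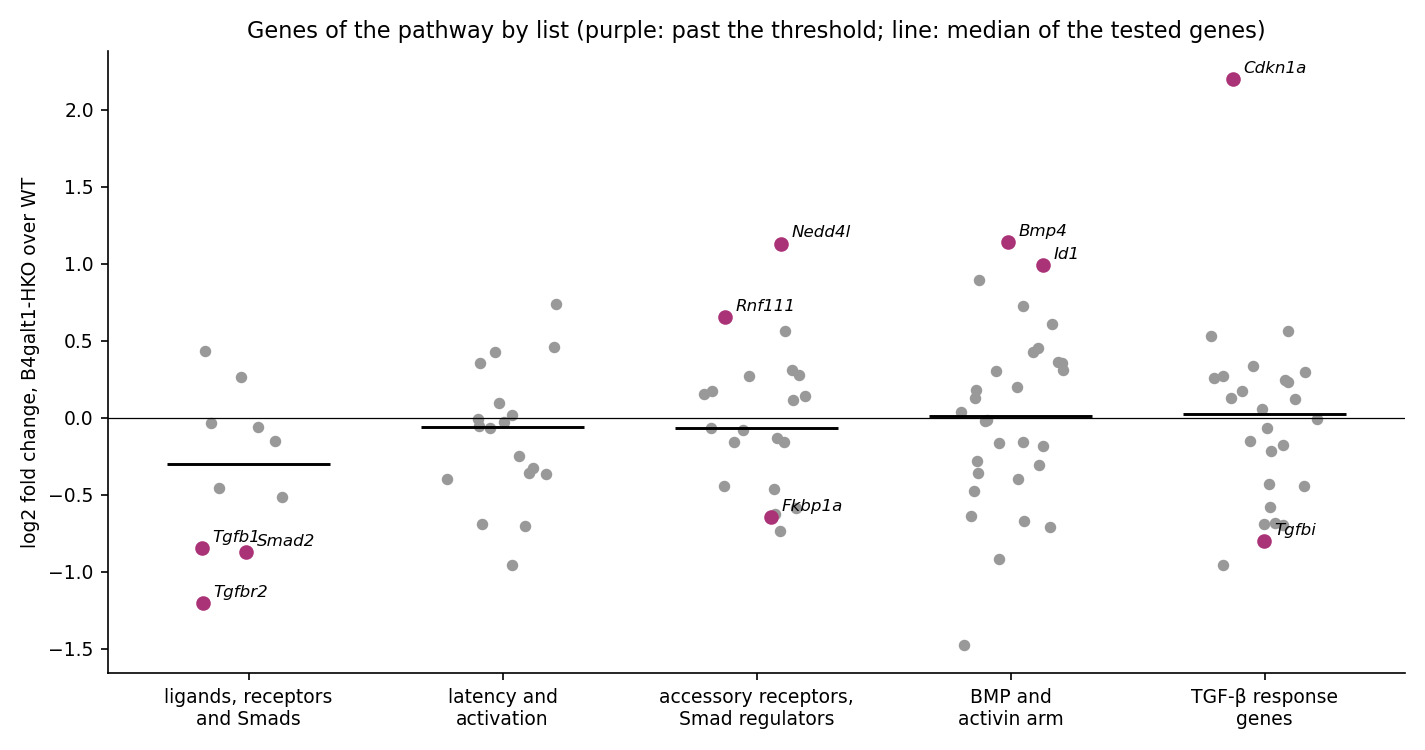
Log2 fold change (y axis, B4galt1-HKO over WT, 4 against 3 libraries) of each tested gene of the 10 genes and the 4 other lists, with called genes in purple and the median of each list as a line; 5 genes appear in 2 lists. The medians of the other lists lie between -0.07 and 0.02, and that of the 10 genes at -0.30, beside 0.02 over all tested genes.

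Reads of some of the 10 genes may include those of another gene model. In RefSeq on GRCm38.p6, 6 of them overlap another model, namely *Tgfb2* (*Gm26169* and *Gm35655*), *Tgfbr1* (*Gm32435*), *Tgfbr2* (*Gm31292*), *Tgfbr3* (*Gm8145*), *Smad3* (*Gm51710*) and *Smad7* (*Gm41776*), and 4 overlap none. Whether the counting used strand is not given in the sources used here, and without strand such reads cannot be told apart.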

How the data were processed

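Liver RNA of 7 mice, 4 WT and 3 B4galt1-HKO by the sample labels, was measured with 1 library per mouse. Per the study's methods and the submitters' processing notes, RNA was extracted with TRIzol and a VAHTS Universal kit was used for the libraries. The notes list fastp, HISAT2, HTSeq, DESeq2, R 3.2.0 and GRCm39. The annotation and strand setting are not given in the sources used here. The authors deposited whole-number counts per gene, not normalized, and FPKM values, which for 13374 genes that reached 10 counts in each library equalled the count over a length fixed per gene and the library total. Counts set the precision, at 30608271 to 39668509 per library.

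Genes were kept by filterByExpr (minimum count 10, total 15), scaled by TMM and compared with edgeR 4.0.16 (quasi-likelihood F test, group as the only term, R 4.3.3, Benjamini-Hochberg over 15179 genes). Calls needed an adjusted p below 0.05 together with a log2 fold change beyond 0.58 in either direction. CPM values are TMM-normalized. Ratios of FPKM were compared by exact permutation. Alternatives used DESeq2 1.42.0 and limma 3.58.1, other filters and scalings, log2(FPKM + 1) and log2(FPKM + 0.1), and leaving out each library. The test was checked on simulated data.

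Named were all 10 genes, *B4galt1*, called genes of each list with a mean CPM of at least 1 (up to 6 per list), a fixed set of pathway genes and the 3 most similar profiles. The genes and lists were chosen with earlier results of these data known. One gene of the response list is not reported here and was left out of its counts. No 2 libraries agreed within counting noise (smallest chi-square per gene 56.0 over 21 pairs). Mice of equal replicate number are different animals, and p-values measure the spread between these mice. No column of sample values was unused.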

Additional observations from a re-analysis of the deposited data

Results flagged for a closer look

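Of the values screened, 1 stood apart in its group. *Fkbp1a* in WT replicate 1 was at 84.8 CPM while the other 3 WT libraries were between 98.4 and 100.9 CPM, so that the gap below them made up 0.839 of the group's range, above the limit of Dixon's test for 4 samples. Of 34 values looked at in the group of 4, this was the 1 set apart, and chance alone sets apart about 1 in 20. Values outside these were not screened, and some lay further apart. *Inhbb* was at 16.0 CPM in WT replicate 3 and 2.26 to 2.37 CPM in the other WT libraries, and *Adgre1* at 71.3 CPM and 20.1 to 25.6 CPM. Without WT replicate 1 the *Fkbp1a* log2 fold change was -0.70 and its call was lost (adjusted p = 0.0521).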

How the results depend on the processing

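With 4 and 3 libraries, leaving out 1 changes many calls. Over the fits without 1 library, calls among the 10 genes ran from 1 to 3, in the latency list from 0 to 1, in the accessory list from 1 to 4, in the BMP and activin list from 0 to 4 and in the response list from 1 to 4. The log2 fold change then ran from -0.96 to -0.30 for *B4galt1*, -0.19 to 0.15 for *Tgfbr1*, -0.38 to 0.16 for *Smad3*, -0.064 to 0.73 for *Smad7*, -0.27 to 0.13 for *Ltbp1*, -0.042 to 0.32 for *Eng*, -0.41 to 0.12 for *Bambi*, -0.10 to 0.41 for *Hamp*, -0.14 to 0.37 for *Pmepa1*, -0.17 to 0.50 for *Skil*, -0.20 to 0.61 for *Col1a1* and -0.24 to 0.21 for *Acta2*. The difference in the *Tgfb1* share of ligand FPKM ran from -4.57 to 0.856 percentage points. *B4galt1* stayed negative and was called without B4galt1-HKO replicate 3 (-0.96), and the others are changes of sign in values that were not called. With 4 against 2 libraries the exact test cannot go below 0.0667, and with 3 against 3 not below 0.1.

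Other settings moved counts of calls. For the 10 genes the count was 1 with limma on log2(FPKM + 1) over all genes above 0, and 2 or 3 under the other settings with all 7 libraries. The latency list had 1 call with DESeq2, upper-quartile scaling, a filter of 10 counts in every library, each of the 3 limma fits on FPKM, without mitochondrially encoded genes and with voom, and 2 with a filter of 1 count in any library. The accessory list had 5 calls with DESeq2 (2 higher, 3 lower) and 6 with limma on log2(FPKM + 0.1) (1 higher, 5 lower), and 2 of its 3 calls were lower with the filtered limma fit on log2(FPKM + 1). The BMP and activin list had 4 with DESeq2 (2 higher, 2 lower), 1 with either filtered limma fit on FPKM (lower) and 0 with the unfiltered one. *B4galt1* passed with the filtered limma fits on log2(FPKM + 1) (-0.67) and on log2(FPKM + 0.1) (-0.73), and not with the unfiltered one (-0.67, adjusted p = 0.108). Signs of values without a call also changed for *Tgfbr1* (0.16) and *Ltbp1* (0.20) with voom, *Smad3* (0.00049) with upper-quartile scaling and *Acta2* (-0.056 on log2(FPKM + 1), with and without the filter, and -0.076 on log2(FPKM + 0.1)). On raw counts, where a sum of genes carries their lengths, 3 ratios reached the smallest exact p of 0.0286 and passed with an adjusted p of 0.0476, at -1.18 for *Tgfbr2* to *Tgfbr1*, 0.82 for *Tgfbr3* to both receptors and 0.82 for *Smad7* to *Smad2* and *Smad3*. Without B4galt1-HKO replicate 3, a setting chosen after seeing the data, these raw ratios differed by -1.38, 0.79 and 0.38. Their adjusted p were 0.167, 0.167 and 0.222 by exact permutation. None could pass, since 4 against 2 libraries allow no exact p below 0.0667, so these p-values decide nothing. The cause of these moves was not tested. On log2(FPKM + 0.1) the median of all genes moved by -0.13 and 23.6% of calls were higher, against 50.5% as reported, 24.5% on log2(FPKM + 1) and 18.2% without the filter. Over 28 genes, the 10 and those that the naming rule took from the other 4 lists, 448 values kept direction and side of the threshold, 45 lost a call, 7 gained one and 30 changed sign.

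The replicate numbers gave no sign of pairing, since the deviations of the 3 same-numbered pairs correlated at -0.34 to 0.078. Which mice shared a litter is not given in the sources used here, and litter was not modelled. With the replicate block, 1267 genes were called in place of 2404, 2 of the 10 genes, 1 each of the latency and accessory lists and 0 of the BMP and activin list, and *Pmepa1* (-0.0027), *Col1a1* (-0.026) and *Acta2* (-0.097) changed sign.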

Other observations

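Values of the Smads outside the TGF-beta branch complete the family. *Smad1*, *Smad5* and *Smad9* carry the BMP signal and *Smad6* inhibits it, and by edgeR 0 of these 4 were called, beside 1 at an unadjusted p under 0.05 and 0 by DESeq2. *Smad1* stood at 12.3, 13.6, 14.1 and 16.5 CPM in WT and 19.0, 18.2 and 17.2 CPM in B4galt1-HKO libraries, without overlap and above WT (log2 fold change 0.36 ± 0.18 (SE), 95% interval -0.03 to 0.76, adjusted p = 0.188). *Smad5* was at 27.1 to 31.6 CPM and 16.3 to 34.2 CPM, *Smad9* at 10.4 to 18.8 CPM and 6.76 to 11.8 CPM and *Smad6* at 6.84 to 10.1 CPM and 4.84 to 7.72 CPM, with log2 fold changes of -0.36 ± 0.24 (SE), -0.71 ± 0.27 (SE) and -0.48 ± 0.25 (SE).

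The activin subunit genes also had 0 of 4 calls by edgeR, beside 2 at an unadjusted p under 0.05 and 1 by DESeq2. *Inhba* stood at 7.01, 6.07, 3.72 and 5.79 CPM in WT and 10.4, 7.81 and 7.60 CPM in B4galt1-HKO libraries, again without overlap (log2 fold change 0.61 ± 0.27 (SE), 95% interval 0.03 to 1.19, adjusted p = 0.135). *Inhbb* was at 16.0 CPM in WT replicate 3 and between 2.26 and 2.37 CPM in the other WT libraries, beside 5.03 to 6.61 CPM in B4galt1-HKO libraries (log2 fold change -0.02 ± 0.64 (SE), 95% interval -1.41 to 1.37, adjusted p = 0.986). *Inhbc* was at 31.2 to 54.1 CPM and 39.2 to 68.7 CPM (log2 fold change 0.20 ± 0.25 (SE), 95% interval -0.36 to 0.75, adjusted p = 0.622).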
